A study of Homo sapiens with 7 samples.

Results

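The mitochondrial ribosome, or mitoribosome, was described through the protein-coding genes whose symbols begin with MRPS or MRPL followed by a digit. The rule took 78 of the 20004 protein-coding genes in the files, 29 with small subunit symbols (MRPS) and 49 with large subunit symbols (MRPL), out of 60754 features in all. RNA came from 2 human cell lines of T-cell acute lymphoblastic leukaemia, PF-382 and MOLT-14, in which the cohesin gene STAG2 had been inactivated or supplied. PF-382 gave 3 libraries of cells edited at STAG2 with a Cas9 and guide RNA ribonucleoprotein, called knockout here, and 2 libraries of untreated wild-type cells. MOLT-14 gave 1 library of cells transduced with STAG2 and 1 of cells transduced with an empty vector (EV). Both lines were grown in the same serum-supplemented medium, and no library had a further drug treatment. The labels do not say whether the knockout libraries are clones or separate cultures of an edited pool, so p values measure the spread between these libraries, which may be technical.

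The mitoribosome translates the few messenger RNAs made from the mitochondrial genome, all of which encode subunits of the respiratory chain and ATP synthase. Its proteins are encoded in the nucleus, translated in the cytosol and imported, and they assemble on ribosomal RNA that is made inside the mitochondrion. The small subunit (RNA MT-RNR1, proteins MRPS) reads the messenger at the decoding centre, and the large subunit (RNA MT-RNR2, proteins MRPL) joins amino acids. Part of the proteins descend from bacterial ribosomal proteins and part are found in mitochondria only. Symbols and subunits do not match everywhere: MRPS18A and MRPS30 sit in the large subunit, MRPS36 is now known as a component of a metabolic dehydrogenase complex, and DAP3, PTCD3, AURKAIP1, CHCHD1 and GADD45GIP1 are mitoribosomal proteins with other names.

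The promoters of the members with the largest rise in knockout PF-382 are shown, 2 from each subunit among those with a sequence in the RefSeq table (GRCh38.p14, 250 bases before to 50 bases after the annotated start, on the strand of the gene). Capitals mark matches, on either strand, to one of 6 motifs that were searched: CCGGAAG for ETS factors, ATGGCGG for YY1, GGGCGG for SP1, CACGTG for the E-box, CCAAT for NF-Y, and the palindrome of NRF1.
MRPS7, chr17:75261629-75261928, plus strand: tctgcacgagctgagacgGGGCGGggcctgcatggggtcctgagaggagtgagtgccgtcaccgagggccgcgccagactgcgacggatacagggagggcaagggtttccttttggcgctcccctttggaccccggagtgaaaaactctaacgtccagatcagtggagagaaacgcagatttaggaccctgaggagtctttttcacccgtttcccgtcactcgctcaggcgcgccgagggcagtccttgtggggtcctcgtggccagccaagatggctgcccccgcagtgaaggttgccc
MRPS12, chr19:38930694-38930993, plus strand: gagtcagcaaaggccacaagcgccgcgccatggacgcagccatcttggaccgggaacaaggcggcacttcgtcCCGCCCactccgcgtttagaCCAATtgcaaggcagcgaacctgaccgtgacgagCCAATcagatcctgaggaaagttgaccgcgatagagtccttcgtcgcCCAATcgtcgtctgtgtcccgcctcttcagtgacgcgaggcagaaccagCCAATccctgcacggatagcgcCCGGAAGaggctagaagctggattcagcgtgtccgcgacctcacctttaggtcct
MRPL1, chr4:77862580-77862879, plus strand: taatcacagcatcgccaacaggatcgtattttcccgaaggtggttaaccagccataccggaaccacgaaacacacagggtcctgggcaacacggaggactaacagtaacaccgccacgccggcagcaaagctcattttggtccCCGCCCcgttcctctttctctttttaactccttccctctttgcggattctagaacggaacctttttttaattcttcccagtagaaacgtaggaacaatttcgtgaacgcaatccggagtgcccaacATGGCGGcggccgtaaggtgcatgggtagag
MRPL20, chr1:1407244-1407543, minus strand: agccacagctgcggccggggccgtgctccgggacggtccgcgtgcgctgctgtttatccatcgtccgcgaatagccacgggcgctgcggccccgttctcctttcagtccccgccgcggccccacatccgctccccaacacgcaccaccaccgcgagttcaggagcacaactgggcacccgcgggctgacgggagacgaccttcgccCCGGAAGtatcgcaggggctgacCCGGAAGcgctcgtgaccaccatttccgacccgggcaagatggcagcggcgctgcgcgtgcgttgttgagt

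No motif was in all of these promoters: MRPS7 has 1 SP1 match only, MRPS12 has 1 ETS, 1 SP1 and 4 CCAAT matches, MRPL1 has 1 YY1 and 1 SP1 match, and MRPL20 has 2 ETS matches. Of the 78 members, 69 had a promoter sequence. The ETS letters were in 42.0% of these, against 19.4% of the promoters of protein-coding genes tested in PF-382 and 10.7% of all promoters of the same length. The YY1 letters were in 34.8% of member promoters, against 10.4% and 5.72%. The NRF1 letters were in 11.6% of them (11.9% and 6.28%), E-box letters in 8.70% (10.2% and 7.43%), SP1 letters in 60.9% (69.9% and 44.6%) and CCAAT in 28.99% (36.8% and 35.7%). The motifs could overlap each other, and a match is a description of the letters and not of a bound site. Members with an ETS match had a median log2 change in knockout PF-382 of 0.57 (n = 29), against 0.50 for members with none (n = 40). Members with a YY1 match had a median of 0.50 (n = 24), against 0.55 without one (n = 45). These medians were not tested. The 9 members with no sequence in the table were MRPL10, MRPL13, MRPL15, MRPL2, MRPL21, MRPL23, MRPL35, MRPS28 and MRPS36.

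The members are spread over 21 chromosomes, with at most 8 on one of them (chromosome 17), by GENCODE 29 on GRCh38. Their exonic lengths ran from 959 to 16393 bp with a median of 2539 bp. Exons of 29 members overlap exons of a gene on the opposite strand and those of 16 members overlap a gene on the same strand, and the strand setting of the counting is not given in the sources used here. Reads of such pairs may therefore have been divided between the partners, and values of those genes are uncertain to that extent. Overlaps are given below for some of the named genes only, and others, such as MRPS7, MRPS16 and MRPL11, have them too. A further 75 features are annotated as pseudogenes of members. They held 0.383% to 0.457% as many counts as the members in knockout PF-382 libraries, 0.880% and 1.004% in wild-type libraries, 0.541% in the STAG2 library and 0.523% in the EV library of MOLT-14.

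Total counts were 65262329, 93970572 and 81304948 in the knockout libraries, 32609485 and 33145516 in the wild-type libraries, 45013453 in the STAG2 library and 38678382 in the EV library. Small RNA genes took 11.96% to 13.98% of counts in knockout, 21.0% and 14.9% in wild type, 9.27% with STAG2 and 4.87% with EV. The 12 T-lineage markers summed to 3962 to 4684 CPM (counts over the scaled library total) in knockout, 3969 and 5317 in wild type, 2008 with STAG2 and 1796 with EV, and 1 of them, TRDC, was at 0 in all 5 PF-382 libraries. The 6 myeloid markers summed to 0.0648 to 2.01 CPM and the 5 erythroid markers to 0.218 to 1.22 CPM over the 7 libraries, with 1 to 4 and 4 of them at 0. The 6 B-lineage markers summed to 4.42 to 19.8 CPM in knockout, 38.8 and 7.35 in wild type, 42.5 with STAG2 and 30.6 with EV, with 1 to 3 of them at 0. The 7 stromal and epithelial markers summed to 53.8 to 58.2 CPM in knockout, 66.2 and 71.5 in wild type, 31.3 with STAG2 and 31.1 with EV, also with 1 to 3 at 0. The part of these markers in the results was not tested. Pearson's r of log CPM across genes was 0.994 to 0.996 between knockout libraries and 0.978 between the wild-type libraries.

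STAG2, the edited gene, had 239, 166 and 181 CPM in knockout PF-382, against 315 and 537 CPM in wild type. The groups did not overlap, the log2 change was -1.13 ± 0.26 (SE), and the adjusted p was 0.0218 by edgeR's quasi-likelihood test. In MOLT-14 it had 164 CPM in the STAG2 library, against 1.35 CPM in the EV library.

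In knockout PF-382 cells most mitoribosomal protein genes were expressed at a higher level than in wild-type cells, in both subunits, and only MRPL10 was significantly lower. Of the 29 small subunit genes 17 rose, 0 fell and 12 did not pass the test, and the median log2 change was 0.51. Of the 49 large subunit genes 29 rose, 1 fell and 19 did not pass, with a median of 0.62. Over all 17442 genes tested, 15.8% rose and 14.6% fell, with a median of -0.02 (edgeR's quasi-likelihood test, two-sided, Benjamini-Hochberg adjusted p under 0.05 over all genes). Among the 13048 protein-coding genes tested these shares were 19.9% and 12.4%, with a median of 0.09. All 78 members passed the filter on low counts. On simulated data 11.1% of the calls of this fit were false, more than the threshold allows. All 3 knockout libraries lay above both wild-type libraries for 69 members, 27 small and 42 large, against 30.4% of all genes and 36.1% of protein-coding genes. Bulk RNA cannot separate a change in every cell from a change in the mix of cells.

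**Figure D1:**
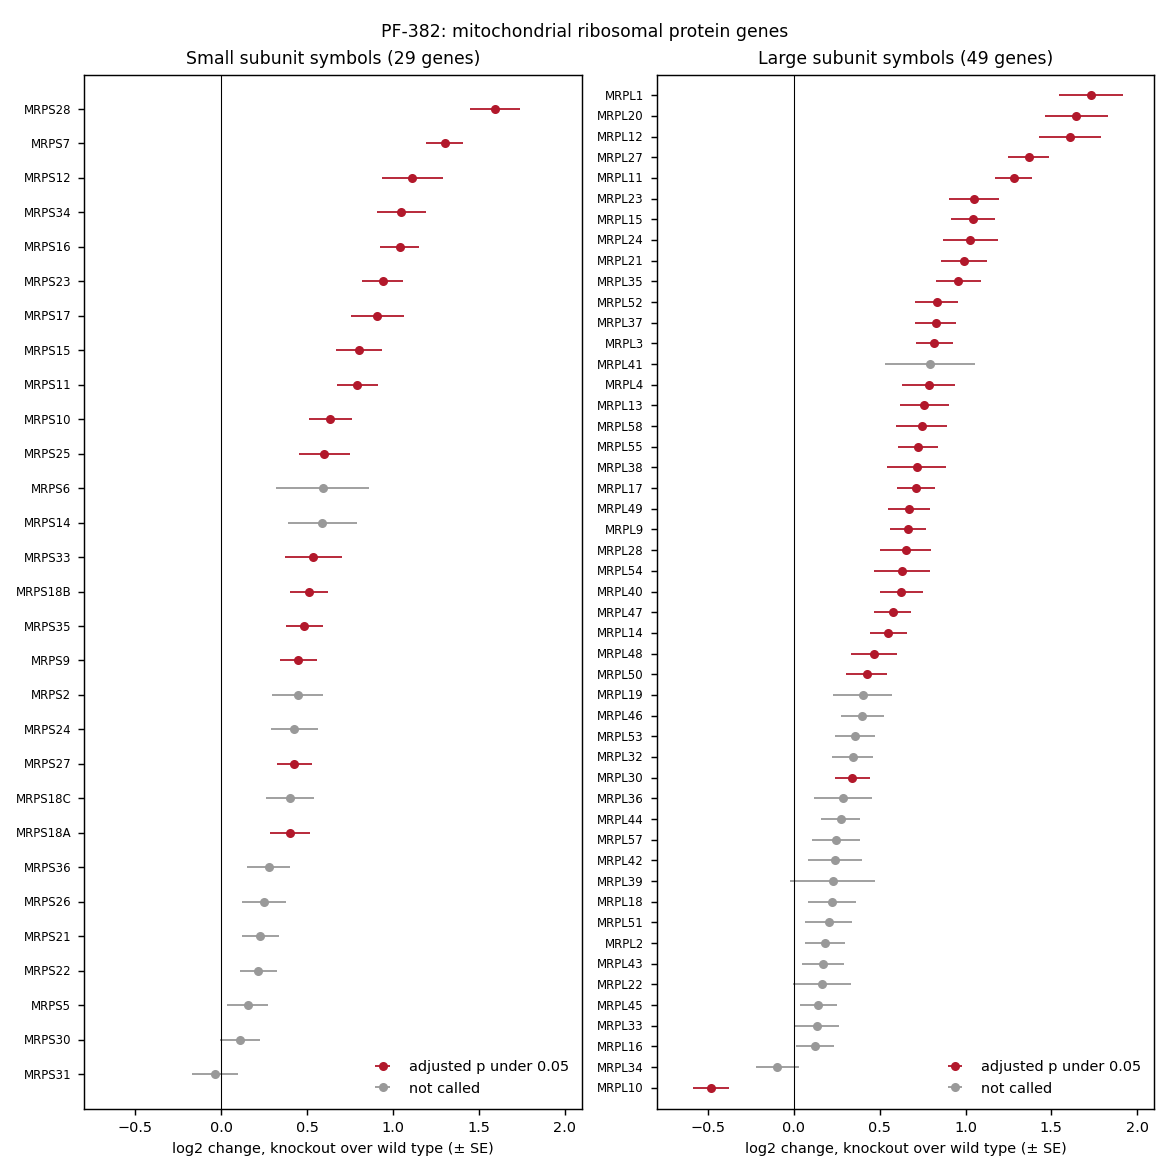
Log2 change of each mitochondrial ribosomal protein gene in PF-382, knockout over wild type (3 against 2 libraries), with bars of 1 SE, small subunit symbols on the left and large subunit symbols on the right. Red points passed the test, 17 higher in the small and 29 higher and 1 lower in the large subunit, and grey points did not.

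Summed over the subunit, small subunit genes had 1515, 1554 and 1521 CPM in knockout, against 1021 and 1000 CPM in wild type. Large subunit genes had 2496, 2543 and 2549 CPM in knockout, against 1662 and 1748 CPM in wild type. Both sums were higher in each of the 3 knockout libraries than in each of the wild-type libraries.

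Among small subunit genes, MRPS28, named as the counterpart of bacterial S1, had the largest change. It had 17.2, 17.5 and 17.4 CPM in knockout, against 5.71 and 5.77 CPM in wild type. The log2 change was 1.60 ± 0.15 (SE; 3.02-fold, adjusted p 0.00269). It was the member with the lowest wild-type level on this scale, its exons overlap those of the gene AC036214.3 on the same strand over 650 bp, and its counts were fractional in 6 of the 7 libraries, so part of its reads were shared between genes. MRPS7 (ENSG00000125445.11, chromosome 17, 75261674 to 75266373) makes the head protein that nucleates the small subunit in bacteria. It had 70.2, 72.0 and 74.3 CPM in knockout, against 29.7 and 28.9 CPM in wild type, a log2 change of 1.30 ± 0.11 (adjusted p 0.00218). MRPS12, at the decoding centre, had 41.5, 45.8 and 44.4 CPM in knockout, against 23.9 and 16.7 CPM in wild type, a log2 change of 1.11 ± 0.18 (adjusted p 0.00747). In none of these genes did a knockout library come near the wild-type values.

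MRPS12 overlaps, over 349 bp of exon, the opposite-strand gene SARS2, which makes the mitochondrial seryl-tRNA synthetase. SARS2 had 26.5, 32.4 and 28.0 CPM in knockout, against 11.6 and 13.96 CPM in wild type (log2 change 1.18, adjusted p 0.00475), so both genes of the pair rose. MRPS34, a protein without a bacterial counterpart, had 75.04, 80.2 and 74.8 CPM in knockout, against 41.8 and 32.3 CPM in wild type (log2 change 1.05, adjusted p 0.00536). MRPS16, a counterpart of bacterial S16, had 139, 147 and 132 CPM in knockout, against 70.3 and 65.3 CPM in wild type (log2 change 1.04, adjusted p 0.00334). MRPS23, a mitochondrial addition to the small subunit, had 67.9, 70.9 and 72.4 CPM in knockout, against 39.4 and 33.9 CPM in wild type (log2 change 0.94, adjusted p 0.00435). The other small subunit genes that rose had log2 changes down to 0.40.

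The smallest changes in the small subunit were those of MRPS31, MRPS30 and MRPS5. MRPS31 had 19.9, 18.3 and 17.4 CPM in knockout, against 17.9 and 20.1 CPM in wild type (log2 change -0.04 ± 0.13, adjusted p 0.857). MRPS30 had 67.9, 65.1 and 67.7 CPM in knockout, against 57.0 and 66.9 CPM in wild type (0.11 ± 0.12, adjusted p 0.493). For these genes the groups overlapped. MRPS5, the counterpart of bacterial S5, had 53.5, 48.7 and 48.6 CPM in knockout, against 42.1 and 48.2 CPM in wild type (0.15 ± 0.12, adjusted p 0.358), with the groups just apart.

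The 3 MRPS18 paralogues, of which MRPS18A belongs to the large subunit and the others to the small one, showed similar values. MRPS18A had 32.1, 33.9 and 34.3 CPM in knockout, against 26.8 and 23.9 CPM in wild type (log2 change 0.40, adjusted p 0.0451). MRPS18B had 65.1, 69.7 and 68.0 CPM in knockout, against 49.8 and 45.1 CPM in wild type (0.51, adjusted p 0.0178). MRPS18C had 35.0, 31.9 and 35.9 CPM in knockout, against 23.1 and 28.8 CPM in wild type (0.40, adjusted p 0.0735). MRPS18A and MRPS18B passed the test and MRPS18C did not, and their differences from one another were not tested. With 1 library left out MRPS18A passed in 1 of 5 fits (log2 0.34 to 0.50, adjusted p up to 0.150) and MRPS18B in 2 of 5 (0.46 to 0.60, up to 0.0803).

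Among large subunit genes, MRPL1, MRPL20 and MRPL12 rose by about the same factor. MRPL1 (ENSG00000169288.18, chromosome 4, 77862520 to 77952790), the protein of the stalk where spent tRNA leaves the ribosome, had 27.1, 25.3 and 26.6 CPM in knockout, against 9.36 and 6.51 CPM in wild type. Its log2 change was 1.73 ± 0.19 (3.32-fold, adjusted p 0.00325). MRPL20 (chromosome 1, 1401908 to 1407313), a counterpart of bacterial L20, had 64.9, 69.5 and 73.4 CPM in knockout, against 26.1 and 18.1 CPM in wild type (log2 change 1.65 ± 0.18, adjusted p 0.00337). Its exons overlap a 7SL RNA pseudogene, RN7SL657P, over 293 bp on the same strand, and its counts were fractional in 2 libraries. Every knockout value of both genes was well above both wild-type values.

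The stalk that recruits translation factors is built from MRPL12 copies held by MRPL10, next to MRPL11, and these 3 genes did not move one way. MRPL12 had 32.2, 26.8 and 22.9 CPM in knockout, against 9.30 and 8.59 CPM in wild type (log2 change 1.61 ± 0.18, adjusted p 0.00351). Its exons overlap a second protein-coding annotation, AC139530.2, over 701 bp on the same strand. MRPL11 had 82.97, 87.8 and 87.9 CPM in knockout, against 35.9 and 35.1 CPM in wild type (1.28 ± 0.11, adjusted p 0.00218). MRPL10 had 32.8, 33.8 and 33.9 CPM in knockout, against 48.0 and 45.6 CPM in wild type (-0.48 ± 0.11, adjusted p 0.0187). MRPL10 was the only member with every knockout library below both wild-type libraries. Its call was lost without knockout 1, 2 or 3, with log2 changes of -0.51 to -0.43 and adjusted p values up to 0.0735 over the fits without 1 library.

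MRPL27, a counterpart of the bacterial protein that reaches into the peptidyl transferase centre, had 50.3, 52.1 and 54.5 CPM in knockout, against 21.4 and 19.1 CPM in wild type (log2 change 1.37 ± 0.12, adjusted p 0.00258). MRPL23, at the exit of the peptide tunnel, had 53.7, 56.8 and 49.6 CPM in knockout, against 28.7 and 22.9 CPM in wild type (1.05 ± 0.15, adjusted p 0.00551). It has an antisense partner, MRPL23-AS1, with 85 bp of shared exon. The smallest changes were in MRPL34, MRPL16 and MRPL33, all counterparts of bacterial proteins. MRPL34 had 39.5, 39.0 and 33.5 CPM in knockout, against 38.4 and 41.5 CPM in wild type (-0.10 ± 0.13, adjusted p 0.584). MRPL16 had 42.9, 39.8 and 39.2 CPM in knockout, against 38.1 and 36.5 CPM in wild type (0.12 ± 0.11, adjusted p 0.430). MRPL33 had 19.6, 23.4 and 20.3 CPM in knockout, against 19.0 and 19.5 CPM in wild type (0.13 ± 0.13, adjusted p 0.470). The groups overlapped for MRPL34 and lay close together for MRPL16 and MRPL33. The log2 changes of the other large subunit genes that did not pass reached 0.79, the value of MRPL41, whose wild-type libraries had 18.4 and 9.97 CPM.

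Members with a bacterial counterpart and those without were both raised. In the small subunit 9 of 16 genes with a counterpart rose (median log2 change 0.61) and 8 of 13 without one (0.42). In the large subunit 20 of 30 with a counterpart rose and 1 fell (median 0.69), and 9 of 19 without one rose (0.42). The background over protein-coding genes tested was 19.9% higher and 12.4% lower, with a median of 0.09. The difference between the classes was not tested. Of the 33 members with whole counts in every library and no exonic overlap with another gene, 20 rose and 1 fell, with a median of 0.54.

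**Figure D2:**
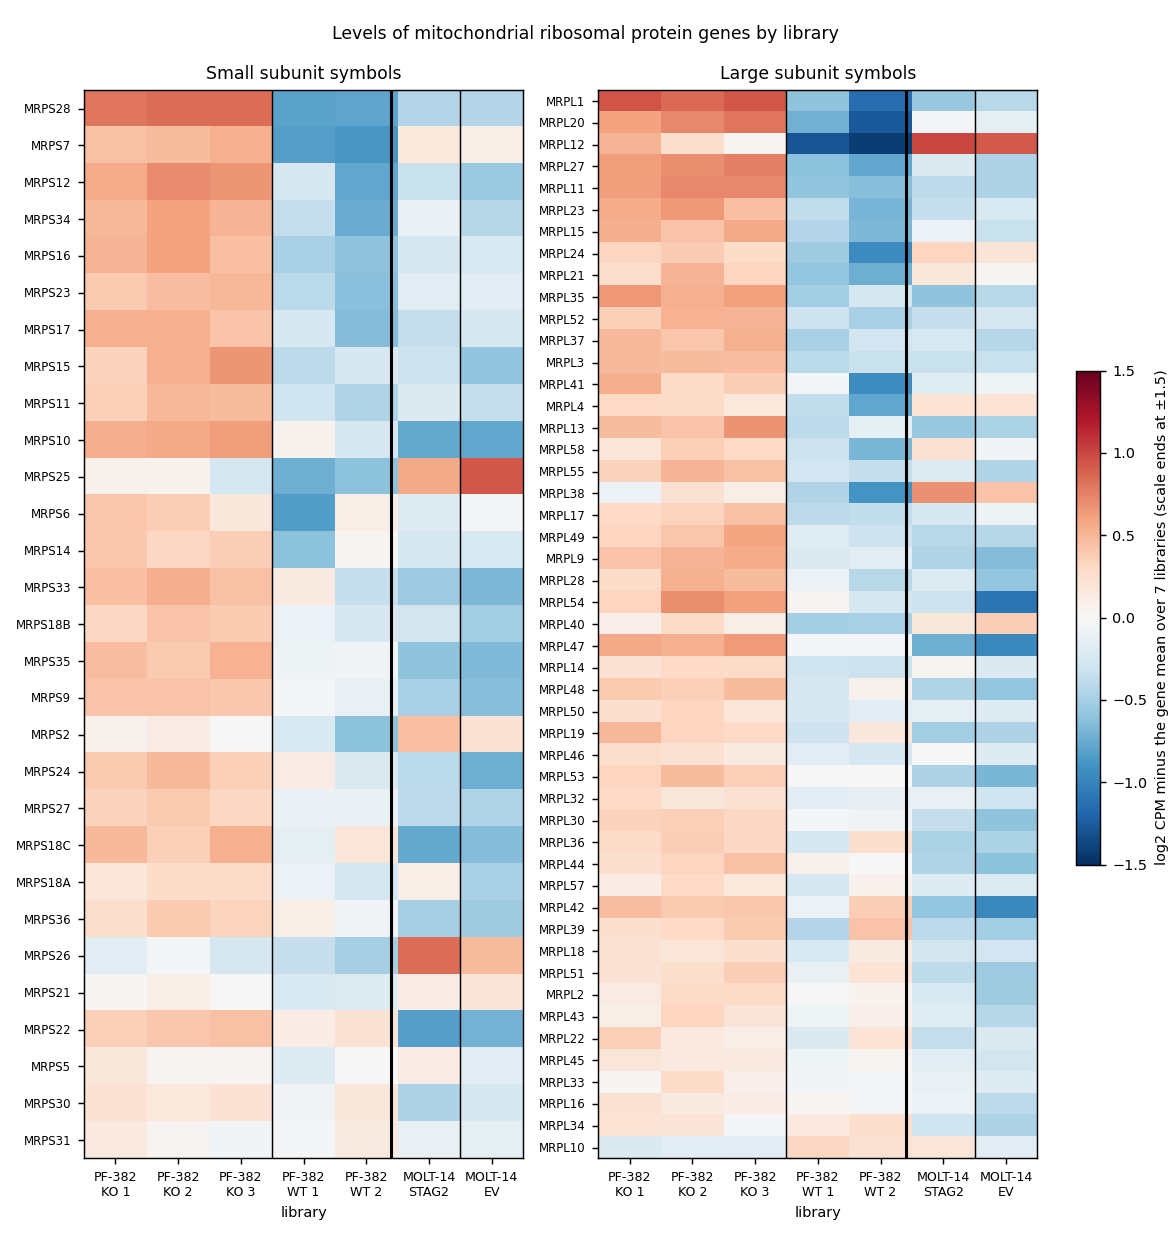
Level of each member in each of the 7 libraries, as log2 CPM minus the mean of the gene over the libraries (colour scale from -1.5 to 1.5), with genes in the order of their log2 change in PF-382. The 3 knockout columns are redder than the wild-type columns for most genes, and the MOLT-14 columns are alike.

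Of the mitoribosomal proteins with other names, 3 of 5 rose. GADD45GIP1 had 50.6, 56.5 and 46.7 CPM in knockout, against 27.5 and 22.0 CPM in wild type (log2 change 1.05, adjusted p 0.00625). AURKAIP1 had 54.8, 57.6 and 55.8 CPM in knockout, against 39.0 and 31.6 CPM in wild type (0.67, adjusted p 0.0135). CHCHD1 had 32.1, 30.4 and 30.2 CPM in knockout, against 18.9 and 22.8 CPM in wild type (0.57, adjusted p 0.0220). In these 3 genes, taken because they passed the test, the groups did not overlap. All knockout libraries lay above both wild-type libraries for 36.1% of protein-coding genes tested. PTCD3 and DAP3, 2 small subunit proteins, did not pass (0.25, adjusted p 0.116, and -0.03, adjusted p 0.816).

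Genes that build and serve the mitoribosome were described from lists of known function. As a background for these and the lists below, 19.9% of the protein-coding genes tested in PF-382 rose and 12.4% fell. Of 17 mitochondrial translation factors 9 rose and 2 fell (median log2 change 0.49), led by MRRF, which recycles ribosomes (0.99, adjusted p 0.00397), TSFM, an elongation factor (0.88, adjusted p 0.00571), and SLIRP, which stabilises mitochondrial messengers (1.16, adjusted p 0.00679). Of 28 assembly factors 14 rose and 1 fell (median 0.42). MTG1, a GTPase of large subunit assembly, had 29.6, 33.0 and 29.3 CPM in knockout, against 12.1 and 10.3 CPM in wild type (1.45, adjusted p 0.00276). FASTKD2, which binds MT-RNR2, changed by 1.21 (adjusted p 0.00305) and NDUFAB1, the mitochondrial acyl carrier protein, by 0.79 (adjusted p 0.00761). These 3 assembly genes changed in the same direction as most members.

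Of the 17 mitochondrial tRNA synthetases, which charge the tRNAs the mitoribosome reads, 10 rose and 0 fell, with a median of 0.84. EARS2 had 42.2, 41.5 and 39.6 CPM in knockout, against 17.0 and 17.6 CPM in wild type (log2 change 1.25, adjusted p 0.00269). MARS2 and CARS2 each changed by 1.25 too (adjusted p 0.00308 and 0.00397). Of 11 genes for transcription and replication of mitochondrial DNA 4 rose and 2 fell (median 0.33). SSBP1, the single-strand binding protein, and TFB2M, a transcription factor, rose (1.09 and 1.37, adjusted p 0.00272 and 0.00551), and POLG, the DNA polymerase, fell by 1.16 on the log2 scale (adjusted p 0.00325). Of 9 regulators of mitochondrial genes tested 3 rose, PPRC1, a coactivator (1.10, adjusted p 0.00608), TFDP1, a partner of E2F (0.80, adjusted p 0.0146), and PPARGC1B, a coactivator (0.72, adjusted p 0.0492). All these lists were compiled with earlier results of these data known.

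The RNAs that are made inside the mitochondrion fell or did not pass the test. Of the 13 mitochondrially encoded messengers 0 rose, 6 fell and 7 did not pass in knockout, with a median log2 change of -0.55. The log2 change was positive for 3 of them, up to 0.52. The largest fall was that of MT-ND4, a subunit of complex I, with 40.2, 39.3 and 32.7 CPM in knockout, against 181 and 121 CPM in wild type (-2.01, adjusted p 0.00276). MT-RNR2 had 234, 66.0 and 41.0 CPM in knockout, against 596 and 789 CPM in wild type (-2.61, adjusted p 0.0324), and MT-RNR1 had 81.2, 17.5 and 10.8 CPM, against 128 and 155 CPM (-1.96, adjusted p 0.102). Knockout 1 was several times above the other knockout libraries for both ribosomal RNAs. All mitochondrially encoded features together took 0.222% to 0.322% of counts in knockout, against 0.600% and 0.550% in wild type.

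The cytosolic ribosome, which translates nuclear messengers, was set beside the mitoribosome. Of 82 cytosolic ribosomal protein genes tested 3 rose and 21 fell in knockout PF-382, with a median log2 change of -0.36. Among all protein-coding genes tested 19.9% rose and 12.4% fell.

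**Figure D3:**
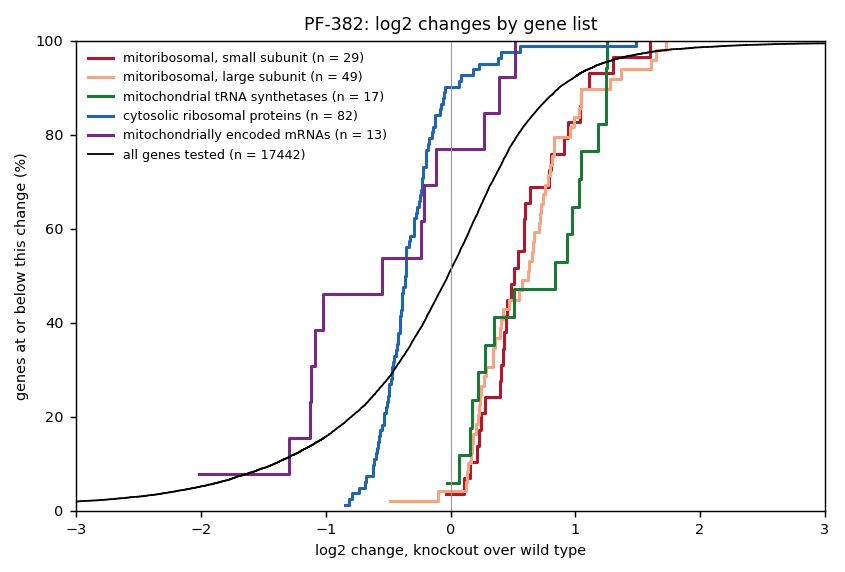
Cumulative share of genes (y axis, %) at or below each log2 change in PF-382, knockout over wild type (x axis), for 5 gene lists and all 17442 genes tested. The curves of the mitoribosomal subunits and the tRNA synthetases lie to the right of all genes (medians 0.51, 0.62 and 0.84), and those of cytosolic ribosomal proteins and mitochondrial messengers cross 50% to the left (medians -0.36 and -0.55).

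The scaling of the libraries sets how many members pass. Under upper-quartile scaling the median over all genes moved to -0.18 from its value of -0.02 with TMM scaling, and 10.5% of all genes rose and 20.4% fell. The members that rose were then 10 small and 23 large, and the subunit medians were 0.35 and 0.46. Of all calls, 33.8% were higher under upper-quartile scaling and 52.0% under TMM scaling. Knockout libraries were deeper than wild-type libraries and had a smaller share of small RNA. With small RNA genes left out, where 17434 genes were tested, the members' counts were again 17 and 29 higher and 1 lower. The parts of depth and of the small RNA share were not tested. Without knockout 1, 9 small and 24 large members were higher, without knockout 2, 9 and 19, and without knockout 3, 10 and 18. Calls over all genes were fewer in those fits too, with 8.27%, 7.48% and 7.19% of genes higher.

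The sample titles of PF-382 carry codes that begin with SA for knockout 1 and both wild-type libraries and with SB for knockout 2 and 3, and the labels do not say what they mean. With these letters as a term beside the group, an alternative added after the data were seen, the change rests on knockout 1 against the wild-type libraries. Then 3 small subunit genes (MRPS7, MRPS16 and MRPS28) and 5 large subunit genes (MRPL1, MRPL11, MRPL12, MRPL20 and MRPL27) were higher and 0 lower, where 1.67% of all genes were higher and 0.843% lower. The medians were 0.50 and 0.53, and all 17 small and 30 large members called without the term kept their sign.

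For 18 members a protein-coding gene starts on the opposite strand within 1000 bp and points away, overlapping the member at most near the starts. Opposite-strand genes that start further inside a member were not counted. Of the 15 such neighbours that were tested and are not members themselves, 5 rose and 1 fell, with a median log2 change of 0.12. Among all protein-coding genes tested 19.9% rose and 12.4% fell, with a median of 0.09. EME1, a nuclease subunit whose start lies 6 bp from that of MRPL27, fell (-0.57, adjusted p 0.0327) where MRPL27 rose. MRPS11 and MRPL46 share a start region of 34 bp, and their log2 changes were 0.79 (adjusted p 0.00653) and 0.40 (adjusted p 0.0558). These genes were named for their position after their values were seen.

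Levels of different members were compared in TPM, which is scaled by transcript length. Over the 7 libraries the highest mean TPM in the small subunit were those of MRPS15 (48.4), MRPS24 (46.1) and MRPS34 (44.6), and the lowest those of MRPS17 (7.17), MRPS36 (8.50) and MRPS31 (8.72). In the large subunit they were MRPL51 (108), MRPL3 (50.6) and MRPL20 (49.0) at the top and MRPL50 (4.12), MRPL1 (9.47) and MRPL46 (10.7) at the bottom. The place of MRPL20 differed between groups: it had 60.9 to 64.9 TPM in knockout PF-382 (rank 2 of 49 in each library), 17.2 and 15.7 TPM in wild type (ranks 16 and 30), 51.5 TPM with STAG2 and 71.5 TPM with EV (ranks 3 and 4). MRPL51 had 123, 109 and 113 TPM in knockout PF-382, 69.8 and 120 TPM in wild type, 96.03 TPM with STAG2 and 122 TPM with EV in MOLT-14. MRPL50 had 4.50, 4.15 and 3.56 TPM in knockout, 2.30 and 3.17 TPM in wild type, 4.58 TPM with STAG2 and 6.57 TPM with EV. MRPL51 was the highest and MRPL50 the lowest member in every library, and the ratio between them ran from 18.5-fold in the EV library to 38.0-fold in wild type 2.

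In MOLT-14, where STAG2 was added rather than removed, mitoribosomal protein genes differed little between the libraries. The median log2 ratio, STAG2 over EV, was 0.08 in the small and 0.15 in the large subunit, against 0.05 over the 11442 genes compared. Only MRPS18A and MRPL54 were at least 1.5-fold higher, 1 of 29 and 1 of 49 members, and 0 were as much lower. MRPS18A was under 1.5-fold with upper-quartile scaling (log2 ratio 0.55) and with protein-coding genes only (0.56). Over all genes compared 4.18% were at least 1.5-fold higher and 3.26% lower. With 1 library a group there is no replicate check and no test, and the intervals given cover counting error only.

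MRPL54, a protein without a bacterial counterpart, had 32.5 CPM with STAG2, against 18.7 CPM with EV (log2 ratio 0.80, exact binomial 95% interval 0.67 to 0.93). MRPS18A had 38.8 CPM with STAG2, against 25.6 CPM with EV (0.60, 0.49 to 0.71). Its exons overlap those of RSPH9 on the opposite strand over 604 bp. The next highest ratios were those of MRPL42 (83.8 CPM with STAG2 and 63.4 CPM with EV, log2 ratio 0.40) and MRPL28 (58.2 and 44.4 CPM, 0.39). At the low end MRPS25, whose exons overlap those of NR2C2 on the opposite strand over 1197 bp, had 57.2 CPM with STAG2, against 72.7 CPM with EV (-0.35, -0.42 to -0.27). MRPS30, MRPL40 and MRPL35 followed, with log2 ratios of -0.20, -0.18 and -0.18. The interval lay above 0 for 44 of the 78 members and below 0 for 6, against 41.2% and 26.3% of all genes compared.

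The 12 genes named above for their rise in knockout PF-382, 6 in each subunit, had log2 ratios of -0.14 to 0.35 in MOLT-14, with a median of 0.09. The counting interval lay above 0 for 7 of them and below 0 for 0, against 44 and 6 of the 78 members. Over all genes compared these shares were 41.2% and 26.3%. The highest ratio was that of MRPS34 (63.6 CPM with STAG2 and 49.7 CPM with EV, 0.27 to 0.44). MRPS28 had 9.32 CPM with STAG2 and 9.23 CPM with EV, MRPL1 had 12.1 and 13.4 CPM, and MRPL12 had 57.8 and 54.1 CPM. MRPL10 had 55.6 CPM with STAG2, against 43.2 CPM with EV (0.36, 0.28 to 0.45). The deposited TPM give another picture in MOLT-14, since their median ratio over all genes was -0.48. On that scale the subunit medians were -0.52 and -0.45, with 0 members at least 1.5-fold higher and 10 small and 8 large members as much lower, against 0.673% and 35.1% of all genes. The EV library had 4.92% of its counts in mitochondrially encoded features, against 1.43% in the STAG2 library. MT-RNR2 had 4551 CPM with STAG2 and 26219 CPM with EV, and 10 of the 12 mitochondrial messengers compared were at least 1.5-fold lower with STAG2. The cause of that difference, and its part in the TPM ratios, was not tested.

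**Figure D4:**
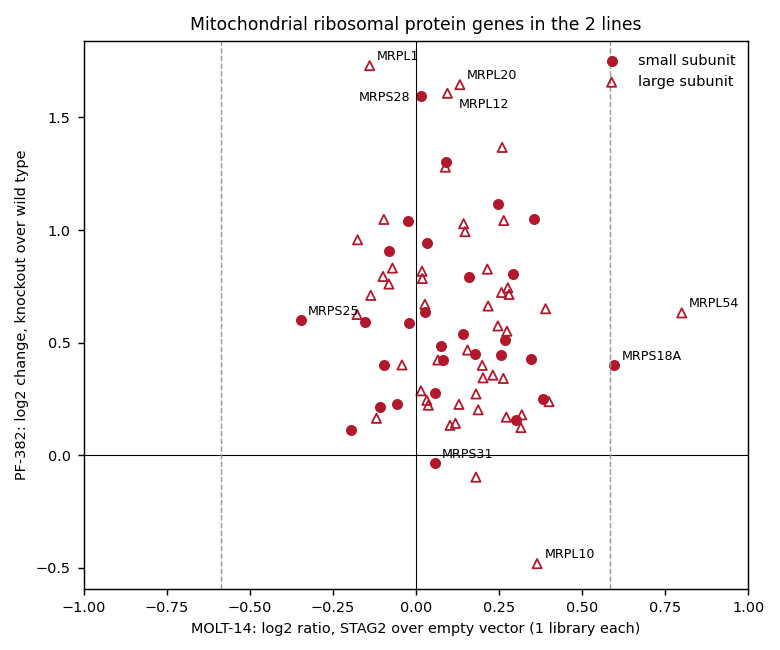
Log2 ratio in MOLT-14, STAG2 over EV (x axis, 1 library each, dashed lines at 1.5-fold), against log2 change in PF-382, knockout over wild type (y axis), for the 78 members. Points spread from -0.48 to 1.73 on the y axis and from -0.35 to 0.80 on the x axis, and only MRPS18A and MRPL54 lie past a dashed line.

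The effect of STAG2 loss was compared between the lines in a fit of all 7 libraries, taking knockout over wild type in PF-382 and EV over STAG2 in MOLT-14. The lone MOLT-14 libraries are assumed in this fit to vary like the PF-382 libraries, so the spread is that of PF-382 alone. Under that assumption the effect passed the threshold narrowly, as higher in PF-382, for 1 small subunit gene, MRPS7 (difference of log2 effects 1.40, adjusted p 0.0477), and 2 large subunit genes, MRPL27 (1.64, adjusted p 0.0477) and MRPL11 (1.38, adjusted p 0.0478), by edgeR's quasi-likelihood test. It was lower for 0 members. Over all 20100 genes tested, 0.343% had a higher and 0.264% a lower effect. The median difference was 0.67 in the small and 0.69 in the large subunit, against -0.05 over all genes. These 3 calls were lost with upper-quartile scaling, with DESeq2 size factors, with a minimum of 1 CPM, with protein-coding genes only and without knockout 1, 2 or 3, with adjusted p values of 0.0512 to 0.204. Without wild type 1, 15 small and 21 large members were called higher, and without wild type 2, 11 and 18, where 7.84% and 6.97% of all genes were.

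Between the lines, mitoribosomal protein genes were more often higher in PF-382 than in MOLT-14, averaging the groups of each line. Line and any batch cannot be told apart here, and both MOLT-14 libraries were transduced while PF-382 cells were edited or untreated. The p values rest on the spread of PF-382 alone. In the small subunit 15 genes were higher and 4 lower (median log2 difference 0.34), and in the large subunit 27 were higher and 4 lower (median 0.38). Over all 20100 genes 27% were higher and 28.4% lower in PF-382, with a median of -0.05. This difference depended on which PF-382 cells were taken. Knockout PF-382 over EV MOLT-14 gave 21 small subunit genes higher and 2 lower (median 0.80) and 33 large subunit genes higher and 1 lower (0.79), where 23.1% of all genes were higher and 24% lower. Wild-type PF-382 over EV MOLT-14 gave 6 small subunit genes higher and 4 lower (median 0.07) and 10 large subunit genes higher and 7 lower (0.16), where 18% of all genes were higher and 17.7% lower. These comparisons share the EV library, so their values stand side by side only. For PF-382 over MOLT-14, leaving out knockout 2 left 17 large subunit genes higher, where 23% of all genes were higher. Leaving out the EV library leaves MOLT-14 with 1 library, and the median over the 78 members was then 0.33, against -0.01 over all genes. Leaving out the STAG2 library gave a median of 0.44, against -0.04 over all genes. Leaving out knockout 3 left 2 large subunit genes lower, where 23.6% of all genes were lower.

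**Figure D5:**
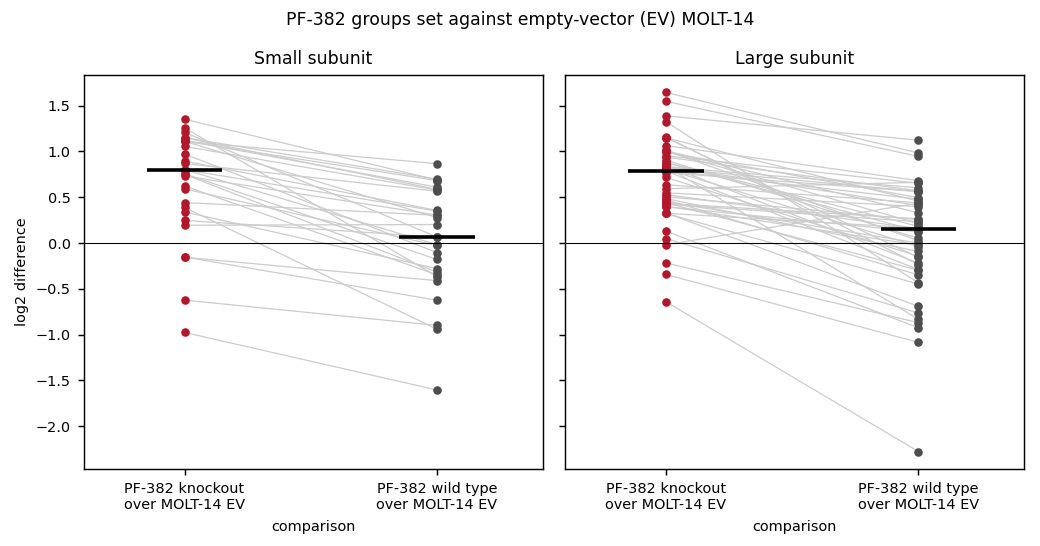
Log2 difference of each member from the EV library of MOLT-14, for knockout PF-382 on the left and wild-type PF-382 on the right of each panel, with lines joining a gene and bars at the medians (0.80 and 0.07 in the small subunit, 0.79 and 0.16 in the large). Both comparisons share the EV library, and most knockout points lie above 0 while wild-type points lie on both sides.

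The values of single genes that follow are CPM on the scale of the fit of all 7 libraries. MRPL47, the counterpart of bacterial L29, had the largest positive difference. It had 57.8, 56.4 and 60.3 CPM in knockout and 38.5 and 38.1 CPM in wild-type PF-382, against 23.3 CPM with STAG2 and 19.9 CPM with EV in MOLT-14 (log2 difference 1.13 ± 0.11, adjusted p 0.000393). MRPL42 had 145, 138 and 139 CPM in knockout and 98.8 and 136 CPM in wild type, against 70.1 and 53.8 CPM in MOLT-14 (1.06 ± 0.15, adjusted p 0.00159). Its exons overlap a 7SL pseudogene, RN7SL737P, and its counts were fractional in 6 libraries. MRPS22 had 49.6, 51.2 and 52.4 CPM in knockout and 41.5 and 44.7 CPM in wild type, against 21.7 and 23.7 CPM in MOLT-14 (1.05 ± 0.11, adjusted p 0.000532). MRPS10 (1.02, adjusted p 0.000879) and MRPS18C (0.95, adjusted p 0.00197) came next. In these genes all PF-382 libraries, wild type included, were above both MOLT-14 libraries. They were picked as the largest differences in the same libraries, and the share of all genes with such a separation was not counted.

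At the other end, MRPL12 of the factor-binding stalk had 34.5, 28.9 and 24.8 CPM in knockout and 9.88 and 9.07 CPM in wild-type PF-382, against 48.4 CPM with STAG2 and 45.9 CPM with EV in MOLT-14. The log2 difference was -1.497 ± 0.15 (adjusted p 0.000477), and the rise in knockout left MRPL12 below the MOLT-14 level. MRPS25 had 33.7, 33.5 and 27.0 CPM in knockout and 19.4 and 21.1 CPM in wild type, against 47.9 and 61.7 CPM in MOLT-14 (-1.11 ± 0.13, adjusted p 0.000831). MRPS26 had 25.4, 27.9 and 23.9 CPM in knockout and 22.4 and 20.1 CPM in wild type, against 51.0 and 39.7 CPM in MOLT-14 (-0.94 ± 0.12, adjusted p 0.00106). MRPL38 (-0.85, adjusted p 0.00375) and MRPS2 (-0.51, adjusted p 0.0173) were also lower in PF-382. The exons of MRPL38 overlap those of AC087289.3 on the same strand over 1373 bp, and its counts were fractional in 7 libraries. For MRPL12, MRPS25, MRPS26, MRPL38 and MRPS2 every PF-382 library was below both MOLT-14 libraries. These genes were picked for the size of this difference, and the share of all genes with such a separation was not counted.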

How the data were processed

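Each of the 7 libraries has a file of 60754 features. Per the file headers, the authors deposited expected counts, estimates of the reads of each gene before any normalisation. The authors deposited TPM in the same files, scaled by transcript length and to a fixed sum per library, and FPKM, which were not used here. STAR, RSEM, GRCh38 and hg38 are named in the submitters' processing notes, without versions, and the annotation release and the strand setting are not given in the sources used here. Read-sharing genes can carry fractional counts, and 20 of the 78 members did in some library.

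Counts were rounded to whole numbers, without the 92 spike-in features (ERCC), whose total was 3 counts in the STAG2 library and 0 elsewhere. PF-382 was fitted alone with the two-sided quasi-likelihood test of edgeR 4.0.16 (R 4.3.3), after filterByExpr by group and with TMM scaling. P values were adjusted by Benjamini-Hochberg across every gene in the fit, and 0.05 was the threshold. Standard errors were derived from the log2 change and the F statistic. MOLT-14, with 1 library a group, was compared by log2 ratios of CPM after TMM scaling. A prior count of 2 was added, genes needed 5 CPM in one of the libraries, and exact binomial intervals at 95% cover counting error only. The lines were compared in a fit of all 7 libraries with a mean for each of the 4 groups, whose spread comes from PF-382 alone. The fits were tested on simulated data. Of the calls 11.1% were false in the PF-382 fit and 15.3% in the fit of the lines, more than the threshold of 0.05 allows. Of the 2-fold changes put in, 27.1% and 42.6% were called, and of the 4-fold changes 67.3% and 68.7%. All calls are uncertain to that extent, and a gene that did not pass may have changed. DESeq2 1.42.0 was run as an alternative.

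Named genes followed a rule. For PF-382 it took, in each subunit, the 6 called members with the largest rise, up to 4 called members with the largest fall and the 3 members with the smallest change. For MOLT-14 it took the 4 highest and 4 lowest ratios, for the lines the 5 largest called differences each way, and for levels the 3 highest and 3 lowest mean TPM. It added the MRPS18 genes, MRPL12, MRPS12, STAG2, the 5 mitoribosomal genes with other symbols, and of each pathway list the 3 called genes with the smallest adjusted p. Genes outside it (SARS2, MRPL41, MRPL10, MRPL1 and MRPS28 in MOLT-14, MT-ND4, MT-RNR1, MT-RNR2, EME1, MRPS11, MRPL46, STAG1, LRPPRC, RCC1L and the genes that overlap members) were named after their values were seen. Members, gene lists and the classes by bacterial counterpart were chosen with earlier results of these data known. Positions came from GENCODE 29 (GRCh38), which held all 78 members by gene ID. Promoters came from RefSeq (GRCh38.p14), with the first start listed for each gene, and 69 members matched.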

Additional observations from a re-analysis of the deposited data

Results flagged for a closer look

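In the test of the difference between the lines in the effect of STAG2 loss, 1 small subunit gene, MRPS7, and 2 large subunit genes, MRPL27 and MRPL11, passed narrowly. Their log2 effect was higher in PF-382 (knockout over wild type) than in MOLT-14 (EV over STAG2), with adjusted p values of 0.0477, 0.0477 and 0.0478 by edgeR's quasi-likelihood test, and 0.343% of all genes were called in this direction. Both MOLT-14 groups have 1 library, so the spread is that of PF-382 alone, and the calls were lost under 7 of 11 alternatives.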

How the results depend on the processing

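No paired analysis was possible because the labels give no replicate numbers that pair libraries across groups. Leaving out a PF-382 wild-type library leaves that arm with 1 library, which the fit assumes to vary like the others. In PF-382, leaving out each library in turn gave 9 to 19 small and 18 to 35 large members higher and 0 and 0 to 1 lower, with median log2 changes of 0.49 to 0.55 and 0.55 to 0.65. All 17 small and 30 large members called kept their sign under all 14 alternatives, and 9 and 17 of them passed in every fit without 1 library. With upper-quartile scaling 10 small members and 10.5% of all genes were higher, and the subunit medians were 0.35 and 0.46. The medians were 0.59 and 0.70 with no filter on low counts (0 large members lower), 0.43 and 0.54 with a minimum of 1 CPM and 0.42 and 0.53 with protein-coding genes only, where fewer genes enter the scaling. With MRPS18A and MRPS30 moved to the large subunit its median was 0.57. DESeq2 called 52 members higher and 1 lower, with 19.2% of all genes higher and 16.4% lower. With the SA or SB letters of the sample titles as a term, 3 small and 5 large members were higher and 0 lower, with medians of 0.50 and 0.53.

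For PF-382 over MOLT-14, leaving out each library gave 10 to 17 small and 13 to 30 large members higher, 2 to 5 and 2 to 6 lower, and medians of 0.33 to 0.43 and 0.29 to 0.44. The medians were 0.19 and 0.24 with upper-quartile scaling, where 17 large members and 22.9% of all genes were higher. They were 0.26 and 0.30 with a minimum of 1 CPM, and 0.23 and 0.28 with protein-coding genes only. With cell line as the only term they were 0.46 and 0.47, with 2 small members lower and 13 large members higher and 0 lower. Of all genes 20.5% were higher and 22% lower in that fit. Knockout PF-382 over EV gave medians of 0.80 and 0.79, with 2 small and 1 large members lower, and wild-type PF-382 over EV gave 0.067 and 0.16, with 6 small and 10 large members higher and 7 large members lower. The log2 difference changed sign in wild-type PF-382 over EV for MRPL1 (-0.43), MRPL11 (-0.16), MRPL27 (-0.24), MRPL3 (-0.038), MRPS11 (-0.018) and MRPS28 (-0.37), and in knockout PF-382 over EV for MRPL24 (0.13) and MRPS7 (0.39). Those contrasts hold fewer libraries, and the cause was not tested.

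In MOLT-14 upper-quartile scaling gave medians of 0.027 and 0.098 with 0 small members past the fold, and protein-coding genes only gave 0.038 and 0.11 with 0. The deposited TPM gave medians of -0.52 and -0.45, with 0 members higher and 10 small and 8 large members lower, where the median of all genes was -0.48. With MRPS18A and MRPS30 moved, 0 small and 2 large members were past the fold. Leaving out small RNA genes, an alternative added after the data were seen, gave 2 members higher and 0 lower.

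For the difference of STAG2 loss effects, PF-382 minus MOLT-14, all alternatives were added after the data were seen. Leaving out each PF-382 library gave 0 to 15 small and 0 to 21 large members higher, with medians of 0.58 to 0.80 and 0.62 to 0.72. With 0 members called in either subunit, the medians were 0.44 and 0.46 with upper-quartile scaling, 0.57 and 0.59 with a minimum of 1 CPM and 0.51 and 0.53 with protein-coding genes only, and DESeq2 size factors also gave 0. With no filter on low counts 3 small and 7 large members were higher (medians 0.74 and 0.75), where 1.43% of all genes were.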

Other observations

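STAG1, the paralogue of STAG2 in cohesin, had 129, 128 and 131 CPM in knockout PF-382, against 53.3 and 47.2 CPM in wild type, and 130 CPM with STAG2 and 125 CPM with EV in MOLT-14. LRPPRC, which binds mitochondrial messengers with SLIRP, had 324, 321 and 310 CPM in knockout PF-382, against 161 and 203 CPM in wild type (log2 change 0.81, edgeR's adjusted p 0.0101). MT-ND4, the mitochondrial messenger with the largest fall, was lower in the same libraries, and 7 of the 13 messengers did not pass. RCC1L, a mitoribosome assembly factor, had 0.686, 1.02 and 0.366 CPM in knockout and 2.24 and 1.87 CPM in wild-type PF-382, against 53.3 CPM with STAG2 and 43.9 CPM with EV in MOLT-14, and its levels in PF-382 lie far below those of every member.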
